A study of Mus musculus with 40 samples.

Results

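The 10 genes described here are markers of the choroid plexus, measured in brain RNA of mice that received human fecal microbes: Ttr, Kl, Folr1, Clic6, Kcnj13, Prlr, Sostdc1, Otx2, Aqp1 and Enpp2. They were chosen by symbol, and each matched 1 Ensembl gene among the 47643 genes of the deposited count tables. Outbred Swiss Webster mice, wild-type and germ-free, were colonized with stool given by 1 of 10 donors before (pre-KD) or on (post-KD) a ketogenic diet, a diet high in fat and low in carbohydrate. Recipients were 6 to 8 weeks old and female by the methods, and brain tissue was taken 4 days after colonization. Hippocampus and frontal cortex were each pooled from 6 mice of a cohort, which gives 40 libraries, 10 for each region and condition, and a replicate is therefore a cohort pool and not a mouse. Every group carried human microbes, and no germ-free or conventional group was analysed here.

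The choroid plexus is a sheet of secretory epithelium that hangs in the brain ventricles and makes cerebrospinal fluid. It lies against the hippocampus along the choroid fissure, whereas the frontal cortex is not lined by it. Its epithelial cells make very large amounts of transthyretin (Ttr), the carrier of thyroxine and of retinol-binding protein in the cerebrospinal fluid. Folr1 encodes the folate receptor that brings folate across the epithelium, Kl encodes klotho, a coreceptor for the hormone FGF23, and Prlr encodes the prolactin receptor. Aqp1 encodes a water channel, Kcnj13 an inward rectifier potassium channel and Clic6 a chloride intracellular channel. Otx2 is a homeodomain transcription factor needed for the tissue to form, and Sostdc1 encodes a secreted inhibitor of BMP and Wnt signalling. Enpp2 encodes autotaxin, the enzyme that makes lysophosphatidic acid, and differs from the others in that oligodendrocytes of the brain also make it. In pooled tissue, fewer epithelial cells and less RNA per cell cannot be told apart.

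Library totals ran from 1140756 to 1947416 counts for hippocampus and from 1188447 to 2095352 for frontal cortex, so that 1 count was worth 0.477 to 0.877 CPM (the count scaled to a library of 1e6 counts) before normalization. A listed 0 allows up to 3 counts, or 1.43 to 2.63 CPM depending on the library, and covers counting error alone. Levels are CPM normalized with edgeR's TMM factors within a region unless another scale is named. Counts of 4 Y-linked genes were present in 24 of the 40 libraries although the mice are given as female. The summed level of these genes was above 10 CPM in 9 libraries and reached 180 CPM, and its part in the results was not tested. Of 6 marker genes each, hippocampal neuron genes had a summed median of 177 CPM in pre-KD hippocampus and 30.7 CPM in pre-KD frontal cortex. Cortical neuron genes had 283 and 449 CPM, and striatal neuron genes 156 and 889 CPM, in the same order.

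Because Otx2 is itself a member and binds the letters TAATCC, the 250 bases before each RefSeq transcript start (GRCm38.p6) were searched for them on either strand. Windows were found for 5 of the 10 members (Kl, Kcnj13, Prlr, Otx2 and Aqp1), 10 windows in all, and 1 of them, upstream of an Otx2 transcript, held the letters, against 2054 of 32851 windows of all genes (6.25%). The match began 211 bases before the start (offset -211) and is in capitals below. The windows of Kl, whose level followed that of Ttr in the hippocampus, and of Kcnj13, whose level was not shown to, are shown beside it, both without a match. Each is written along the gene's own strand, and a match or its absence describes these letters alone.
Kl, chr5:150952357-150952606, plus strand: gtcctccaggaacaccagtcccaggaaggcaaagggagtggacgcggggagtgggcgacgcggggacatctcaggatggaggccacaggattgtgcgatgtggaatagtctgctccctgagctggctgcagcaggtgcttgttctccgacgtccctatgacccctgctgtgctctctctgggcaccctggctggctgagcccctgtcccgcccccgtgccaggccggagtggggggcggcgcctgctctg
Kcnj13, chr1:87394730-87394979, minus strand: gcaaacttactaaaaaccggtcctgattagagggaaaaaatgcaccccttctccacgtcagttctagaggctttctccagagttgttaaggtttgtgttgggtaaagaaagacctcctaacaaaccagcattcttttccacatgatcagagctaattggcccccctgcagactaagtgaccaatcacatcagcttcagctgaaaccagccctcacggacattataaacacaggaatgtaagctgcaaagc
Otx2, chr14:48665110-48665359, minus strand: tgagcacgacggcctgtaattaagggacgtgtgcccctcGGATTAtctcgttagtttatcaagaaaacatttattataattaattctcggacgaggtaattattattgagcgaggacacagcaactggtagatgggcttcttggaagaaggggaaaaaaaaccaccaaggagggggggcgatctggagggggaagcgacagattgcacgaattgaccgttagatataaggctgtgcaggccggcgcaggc

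Ttr was the most variable of the well counted members. In pre-KD hippocampus its lowest, median and highest levels were 682, 1511 and 2440 CPM (mean 1548 ± 559, SD, n = 10), and in post-KD hippocampus they were 452, 1264 and 4213 CPM (1665 ± 1155, SD, n = 10). In the frontal cortex they were 1.05, 32.3 and 555 CPM pre-KD (124 ± 179, SD, n = 10) and 3.96, 130 and 406 CPM post-KD (153 ± 120, SD, n = 10). The frontal cortical libraries thus ranged from nearly no Ttr, 2 counts in pre-KD donor 5, to a level within the hippocampal range, 1080 counts in pre-KD donor 6. The highest hippocampal level was 9.33 times the lowest, while no such ratio is given for the frontal cortex, where the lowest level rested on those 2 counts and the next (3.35 CPM) on 6. The coefficient of variation over 20 libraries was 55.1% in hippocampus and 107% in frontal cortex. edgeR's biological coefficient of variation, which is shrunk toward the trend over genes, was 0.346 for hippocampal Ttr beside a median of 0.298 over 325 genes averaging at least 500 counts. Over 8016 hippocampal genes averaging at least 20 counts the median was 0.591, above the value of Ttr. For frontal cortical Ttr the coefficient was 0.690 beside a median of 0.440 over 8255 genes averaging at least 20. Of all Ttr counts in pre-KD frontal cortex, 48.3% came from the single library of donor 6.

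Enpp2, the other well counted member, varied less. Its lowest, median and highest levels in hippocampus were 312, 542 and 653 CPM pre-KD (501 ± 128, SD, n = 10) and 229, 464 and 1239 CPM post-KD (559 ± 329, SD, n = 10). In frontal cortex they were 112, 172 and 284 CPM pre-KD (182 ± 52.9, SD, n = 10) and 145, 171 and 286 CPM post-KD (191 ± 48.7, SD, n = 10). The library with the highest Enpp2 in post-KD hippocampus, that of donor 2, was also the one with the highest Ttr, and the lowest of both was that of donor 6. Of the 10 members 7 (Ttr, Enpp2, Kl, Clic6, Prlr, Otx2 and Aqp1) reached their highest post-KD hippocampal level in the library of donor 2, while Folr1 did so in that of donor 7, Sostdc1 in that of donor 9 and Kcnj13 in that of donor 10. The library of donor 2 was also the largest of this group, at 1687020 counts. The share of all genes that were highest in it was not counted, so the 7 members have no background to be read against.

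The receptors were sparse. Prlr in hippocampus had lowest, median and highest levels of 2.57, 30.7 and 99.2 CPM pre-KD and 3.35, 27.0 and 106 CPM post-KD, and in frontal cortex 0, 2.38 and 17.2 CPM and 0, 7.41 and 28.3 CPM. Kl had 0.684, 12.6 and 31.5 CPM in pre-KD hippocampus and 0, 8.27 and 39 CPM in post-KD hippocampus. In frontal cortex Kl was listed at 0 in 6 of 10 pre-KD and 7 of 10 post-KD libraries, with 37 counts in all. Folr1 had 0, 11.5 and 29.2 CPM and 0, 14.8 and 41.0 CPM in pre-KD and post-KD hippocampus, and was at 0 in 14 of 20 frontal cortical libraries. For these receptors the lower end of each hippocampal group reached into the frontal cortical range.

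Among the channels, Kcnj13 was uneven, with 0, 5.96 and 47.3 CPM in pre-KD hippocampus and 0, 4.90 and 61.2 CPM in post-KD hippocampus, and it was at 0 in 13 of 20 frontal cortical libraries. Clic6 had 0, 6.10 and 20.4 CPM and 0, 5.46 and 39.6 CPM in pre-KD and post-KD hippocampus, and 0, 5.95 and 16.4 CPM and 0, 2.09 and 11.2 CPM in the frontal cortex. Aqp1 had 0, 5.86 and 15.4 CPM and 0, 1.13 and 23.4 CPM in hippocampus, and 0, 1.22 and 7.42 CPM and 0, 0.572 and 12.4 CPM in frontal cortex. Clic6 and Aqp1 thus overlapped widely between the regions, and Clic6 had counts in 17 of 20 frontal cortical libraries.

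The secreted inhibitor Sostdc1 had lowest, median and highest levels of 13.4, 40.5 and 82.8 CPM in pre-KD hippocampus and 0, 20.2 and 66.5 CPM in post-KD hippocampus. In frontal cortex it had 0, 3.11 and 27.8 CPM and 0, 0.267 and 6.74 CPM, with 10 of 20 libraries at 0. The transcription factor Otx2 had 0, 11.3 and 29.8 CPM and 0, 6.57 and 19.2 CPM in hippocampus and 0, 1.98 and 10.8 CPM and 0, 1.85 and 11.7 CPM in frontal cortex. Outside Ttr and Enpp2, the members rested on at most 177 counts in any library. Their coefficient of variation over 20 libraries ran from 68.1% to 126% in hippocampus and from 94.4% to 231% in frontal cortex, where counting error alone gives 12.7% to 30.6% and 27.5% to 73.5%.

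**Figure D1:**
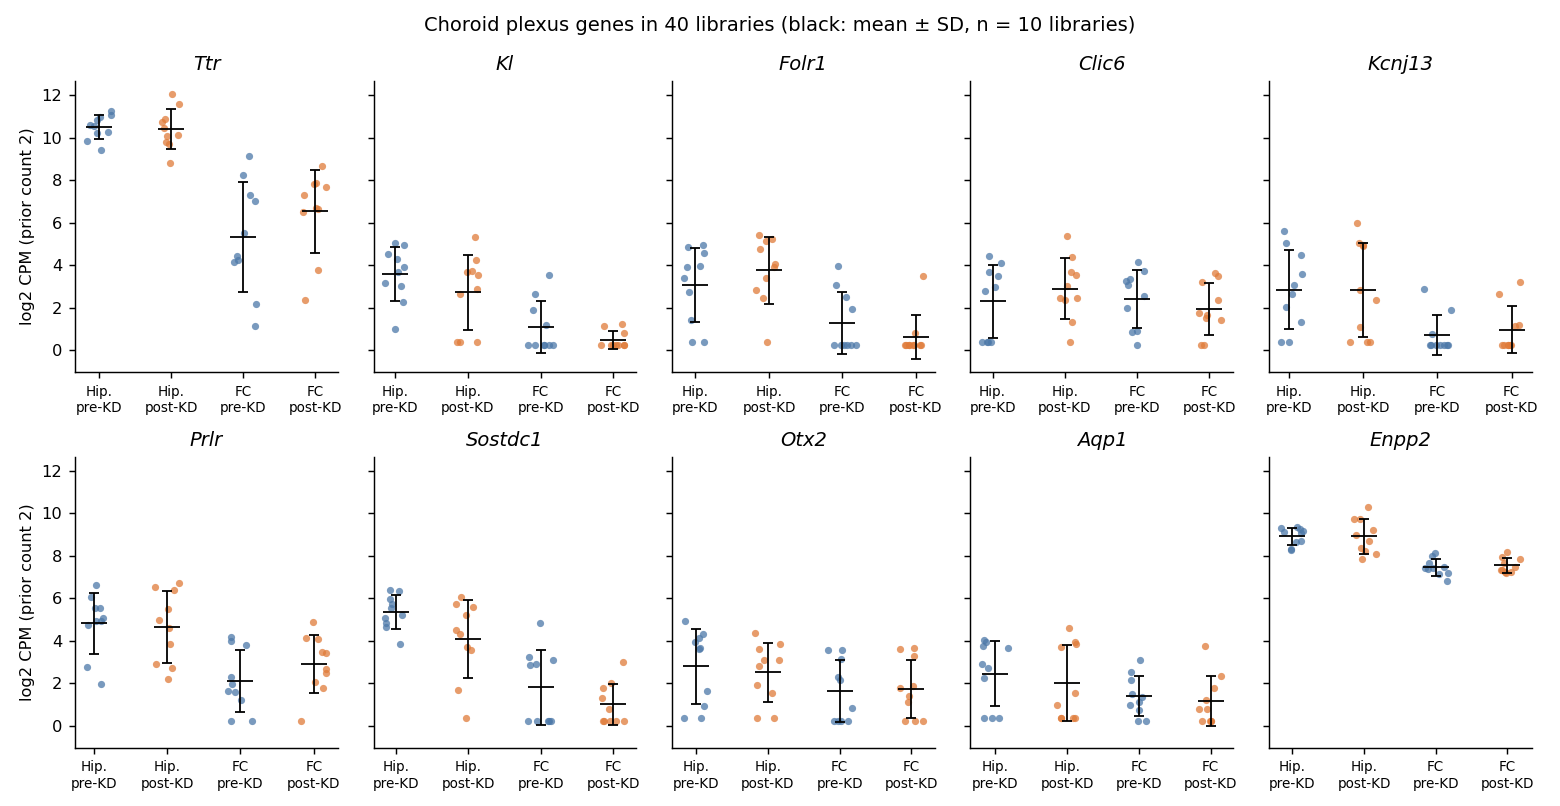
Level of each member in every library, as log2 CPM (TMM within region, prior count 2), for pre-KD and post-KD hippocampus and frontal cortex. Each point is 1 library, and black bars give the mean ± SD of 10. The means of Ttr and Enpp2 stand above those of the other members in each group, while single Ttr values spread from 1.05 to 555 CPM in the frontal cortex.

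The members lie apart in the GRCm38 mouse build. Ttr is on chromosome 18 (20665280 to 20674321, plus strand), Kl on chromosome 5 (150952607 to 150993817, plus), Folr1 on chromosome 7 (101858331 to 101870788, minus), Clic6 on chromosome 16 (92485736 to 92541243, plus) and Kcnj13 on chromosome 1 (87386363 to 87394729, minus). Prlr and Enpp2 share chromosome 15 (10177238 to 10349180, plus, and 54838901 to 54952892, minus). Sostdc1 lies on chromosome 12 (36314139 to 36318452, plus), Otx2 on chromosome 14 (48657677 to 48673819, minus) and Aqp1 on chromosome 6 (55336432 to 55348555, plus).

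Levels can be compared between genes only per length, and even so with doubt here. The methods text and sample labels name the TruSeq kit, which covers whole transcripts, while the paper's resource list names a QuantSeq kit, which reads 3' ends. On mean CPM per kilobase of merged exons, the hippocampal order was Ttr 1355 (SD 746), Enpp2 91.7 (SD 42.3), Sostdc1 20.2 (SD 13.8), Kcnj13 11.3 (SD 14.2) and Folr1 6.73 (SD 5.68), each over 20 libraries. Prlr (2.57, SD 2.17), Aqp1 (2.55, SD 2.74), Clic6 (2.19, SD 2.49), Otx2 (2.04, SD 1.96) and Kl (1.32, SD 1.19) followed, and neighbours from Sostdc1 down did not differ beyond their spread. Frontal cortical Ttr (117, SD 126) and Enpp2 (32.3, SD 8.6) again came first on this scale and Kl (0.118, SD 0.272) last, with the other 7 between 0.492 and 1.96.

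Hippocampus and frontal cortex of the same 20 cohorts were compared to ask how unevenly the markers fall between the dissected regions. Of the 10 members, 7 were higher in the hippocampus at an adjusted p under 0.05 (edgeR's quasi-likelihood test with a term for each cohort, Benjamini-Hochberg over 19422 genes) and none were lower. Of all genes tested 2.85% passed this threshold, 0.87% as higher and 1.98% as lower in the hippocampus. The median log2 fold change was 3.31 over the members and -0.168 over all genes. Ttr was higher in the hippocampus in 20 of 20 cohorts, by 2.19 to 1416 times with a median of 11.9 times (CPM scaled over all 40 libraries). Its log2 fold change was 4.13 (SE 0.60 from the gene's own dispersion, edgeR adjusted p = 0.000349 with that dispersion, BH over 18054 genes).

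Among the receptors, the log2 fold change was 4.50 for Kl (SE 0.84, higher in 15 of 20 cohorts), 4.72 for Folr1 (SE 1.04, 14 of 20) and 2.5 for Prlr (SE 0.68, 17 of 20). Over 7 alternatives other than leaving out a donor, Folr1 ran from 2.96 to 4.73. Without cohort terms the median over the members was 2.67. Sostdc1 was higher by 4.28 on the log2 scale (SE 0.78, 18 of 20 cohorts) and Kcnj13 by 4.29 (SE 1.31, 14 of 20). The enzyme gene Enpp2 was higher by 1.39 (SE 0.17) and in 19 of 20 cohorts, by a median of 2.39 times. The members that did not pass were Clic6 at 0.61 (SE 0.94, higher in 10 of 20 cohorts), Otx2 at 1.73 (SE 1.28, 13 of 20) and Aqp1 at 1.33 (SE 0.83, 11 of 20).

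The fit with cohort terms replaced each gene's own quasi-dispersion by the common trend, and for Ttr this meant 0.269 in place of 14.4. The standard errors above and the adjusted p printed for Ttr are therefore those recomputed with the gene's own dispersion, an alternative chosen after the data were seen. The call of 7 members is that of the fit as planned. DESeq2 called the same 7 members, where 5.32% of genes passed. Under the own dispersion 5 of the 10 members stayed past the threshold, where 2.16% of genes did. Kl (adjusted p = 0.00655), Folr1 (0.0223), Sostdc1 (0.00334) and Enpp2 (6.53e-05) did so beside Ttr, while Kcnj13 (0.135) and Prlr (0.0691) did not. With each cohort's hippocampal minus frontal cortical log2 CPM as 1 value, the mean difference was 4.50 ± 2.55 (SD, n = 20) for Ttr and 1.38 ± 0.75 (SD, n = 20) for Enpp2. A two-sided sign-flip permutation test gave p = 1e-05 for both, the smallest it can give. All 10 members had overlapping ranges between the regions, and of all genes 0.0257% (5 of 19422) lay wholly higher in the hippocampus. Region and table also coincide, since each region's libraries were deposited apart, and any difference in handling between the sets cannot be told apart from region.

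The same comparison was read for other choroid plexus genes and for a list named partners here. That list holds genes that work with the members and relatives of such genes or of the members. Of 40 other choroid plexus genes listed, 38 were tested and 5 were higher in the hippocampus, none lower, with a median log2 fold change of 1.26. Of all genes 0.87% were called higher and 1.98% lower. The edgeR calls in this paragraph come from the fit that sets aside each gene's own dispersion, and values under the own dispersion are not given here. The 5 called by edgeR were Tmem72 (4.01), Slc4a5 (4.09), a bicarbonate transporter, 1500015O10Rik (3.90), also called Ecrg4, F5 (2.85), coagulation factor V, and Igf2 (1.24), a growth factor that meninges also make. DESeq2 called 11 genes of this list higher and none lower, where 5.32% of all genes passed in either direction. Of 19 tested partners of the members, Thra, a receptor for the thyroid hormone that Ttr carries, was higher by 0.28 and Dio2, the enzyme that activates that hormone, was lower (-0.84). Fgf23, the hormone for which klotho is a coreceptor, and Klb, a relative of Kl, had too few counts to test. The retinol carrier Rbp4 (-1.31, adjusted p = 0.336) and Prl (2.30, adjusted p = 0.326) did not pass the edgeR threshold.

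Neighbouring tissues were read in the same fit, where 10.9% of all genes had an unadjusted p under 0.05, 2.78% as higher and 8.12% as lower in the hippocampus. Of 12 ependymal genes none passed in edgeR or DESeq2 or had an unadjusted p under 0.05, and their median was 0.12. Of 10 oligodendrocyte genes none passed in edgeR, with a median of -0.21, while 1 higher and 4 lower ones had an unadjusted p under 0.05. Of 10 genes of meninges and fibroblasts 1 did, Dcn (1.32), with a median of -0.06, and of 6 endothelial and 4 blood genes none did, while 3 of each were lower at an unadjusted p under 0.05. DESeq2 called 1 oligodendrocyte, 1 endothelial and 1 blood gene as lower. Of 6 hippocampal neuron genes 4 were higher (Prox1, C1ql2, Dsp and Spink8), of 6 cortical neuron genes 2 were lower (Rorb and Lamp5), and 6 of 6 striatal neuron genes were lower, by log2 fold changes of -3.32 for Penk and -2.49 for Ppp1r1b among those with the smallest p of that list. Of 5 tested habenula and thalamus genes Lhx9 was higher and Rora lower.

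**Figure D2:**
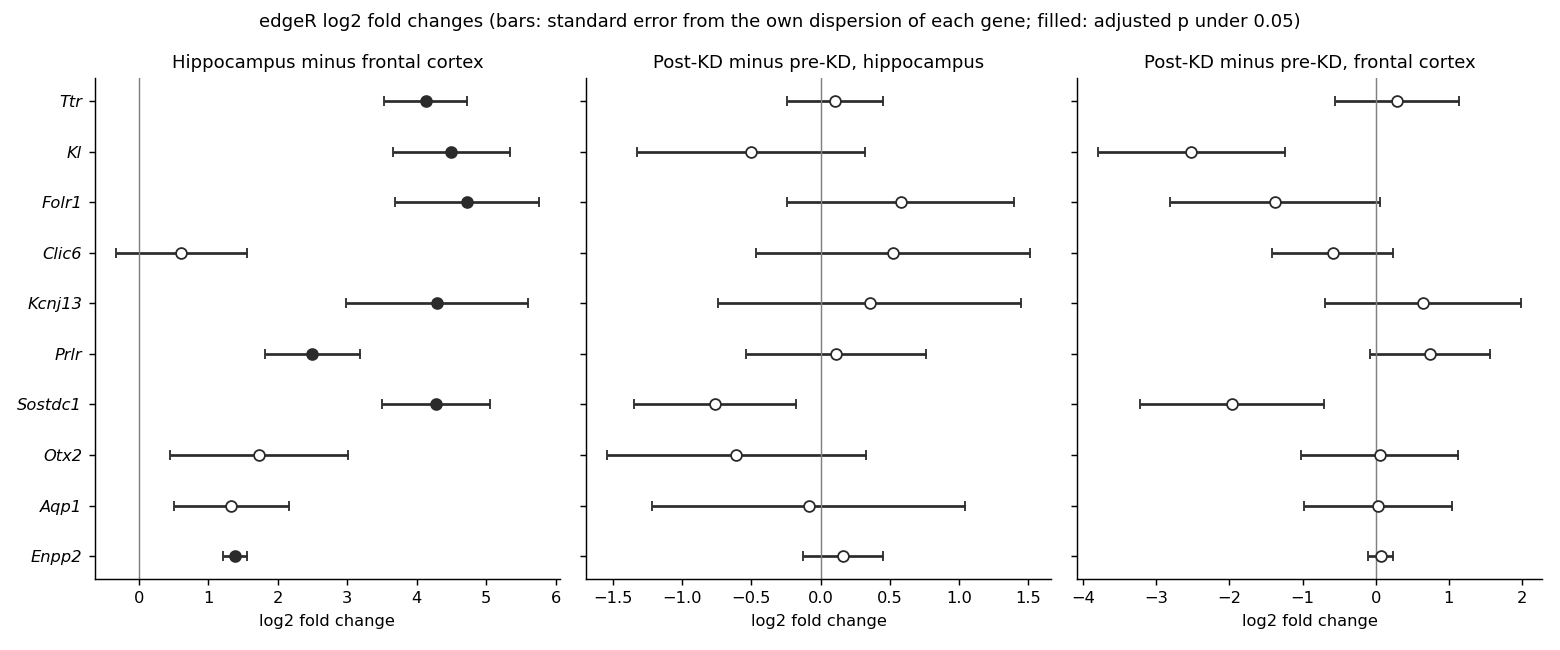
edgeR log2 fold change of each member between regions and between conditions within each region, with bars for the standard error from the gene's own dispersion and filled points for an adjusted p under 0.05 in the test as planned; the x axes of the 3 panels differ. Filled points appear for 7 members in the panel between regions and for none in the panels by condition.

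Post-KD and pre-KD cohorts were then compared in each region, the contrast for which the study was made. In the hippocampus none of the 10 members passed an adjusted p under 0.05 and none had an unadjusted p under 0.05 (edgeR, unblocked), where 0.0057% of all genes passed the first and 10.1% the second. DESeq2 also called none of the members. The log2 fold change of Ttr was 0.11 (SE 0.35 from its own dispersion), and Ttr was higher post-KD in 5 of 10 donors. By donor, the mean log2 difference was -0.08 ± 1.02 (SD, n = 10) with an exact two-sided sign-flip permutation p of 0.807. The post-KD and pre-KD values of Ttr overlapped, and the post-KD libraries spread further in both directions, with 3 of 10 outside the pre-KD range. Enpp2 had a log2 fold change of 0.16 (SE 0.29) and was higher in 6 of 10 donors.

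The other members moved both ways in the hippocampus, and 6 of the 10 fold changes were positive, with a median of 0.11 beside -0.01 over all genes. Sostdc1 came nearest to the threshold, at -0.76 (SE 0.58, unadjusted p = 0.0848, edgeR adjusted p = 0.667), and was lower post-KD in 7 of 10 donors. Leaving out each donor in turn it ran from -1.05 to -0.47, with an unadjusted p under 0.05 in 2 of 10 fits, and with the donor as a block from -1.43 to -0.78, with 8 of 10. With the donor as a block it was -1.15 with an unadjusted p of 0.0206 and an adjusted p of 1 (edgeR). The blocked fit set aside the own quasi-dispersion of Sostdc1, 2.39, for a trend value of 1.04. Over 9 alternatives other than leaving out a donor (edgeR or DESeq2), the unadjusted p was under 0.05 in 2 and reached 0.209. Folr1 (0.58, SE 0.82), Clic6 (0.52, SE 0.99), Kcnj13 (0.35, SE 1.09) and Prlr (0.11, SE 0.65) had positive values, and Kl (-0.50, SE 0.82), Otx2 (-0.61, SE 0.93) and Aqp1 (-0.09, SE 1.13) negative ones. Leaving out each donor in turn, Folr1 ran from 0.23 to 0.90, Clic6 from 0.20 to 0.85 and Kl from -0.86 to -0.15. The standard errors leave room, at 2 SE, for changes of more than 1 log2 unit in either direction for the sparse members other than Sostdc1.

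In the frontal cortex none of the 10 members passed the adjusted threshold and none had an unadjusted p under 0.05 in the unblocked edgeR test, where 0.0056% and 9.68% of all genes did. DESeq2 without a block called none of the members as well, and 0.0112% of all genes. Ttr had a log2 fold change of 0.29 (SE 0.85, edgeR adjusted p = 0.991) and was higher post-KD in 7 of 10 donors. Leaving out each donor in turn, this fold change ran from -0.15 to 0.94. The post-KD median of 130 CPM lay above the pre-KD median of 32.3 CPM, while the 2 means of 153 and 124 CPM were close, since the pre-KD library of donor 6 held the highest level. Prlr was also higher in 7 of 10 donors (0.75, SE 0.83), and Kl (-2.52, SE 1.27) and Sostdc1 (-1.97, SE 1.26) had the most negative values on 37 and 105 counts. With the donor as a block Kl was -1.63 (edgeR adjusted p = 1). The remaining values were Folr1 -1.38 (SE 1.43), Clic6 -0.59 (SE 0.83), Kcnj13 0.65 (SE 1.34), Otx2 0.06 (SE 1.08), Aqp1 0.03 (SE 1.01) and Enpp2 0.07 (SE 0.17). The value of Folr1 turned on single donors, at -4.35 without donor 4 (unadjusted p = 0.00505, edgeR adjusted p = 0.162) and -0.42 without donor 6, while that of Sostdc1 ran from -2.91 to -0.998 and that of Clic6 from -0.93 to -0.35 leaving out each donor in turn. Of the 10 values 6 were positive, and their median was 0.04 beside 0.01 over all genes.

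Ttr in the frontal cortex was the single member whose call changed with the donor as a block, the pairing that the design provides. The blocked log2 fold change was 0.95 with an edgeR adjusted p of 0.0157, where 0.0168% of genes passed (3 of 17873). That fit again set aside the gene's own quasi-dispersion, 14, for a trend value of 0.685. With its own dispersion the blocked value had an SE of 0.89 and an adjusted p of 1, and DESeq2 with the block gave 1.09 (SE 0.69, adjusted p = 0.940). By donor, the mean log2 difference was 1.2 ± 2.64 (SD, n = 10), from -1.87 in donor 2 to 6.49 in donor 4, with an exact two-sided sign-flip permutation p of 0.188. Leaving out each donor in turn, the blocked edgeR value ran from 0.50 to 1.31 and passed the threshold in 5 of 10 fits.

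**Figure D3:**
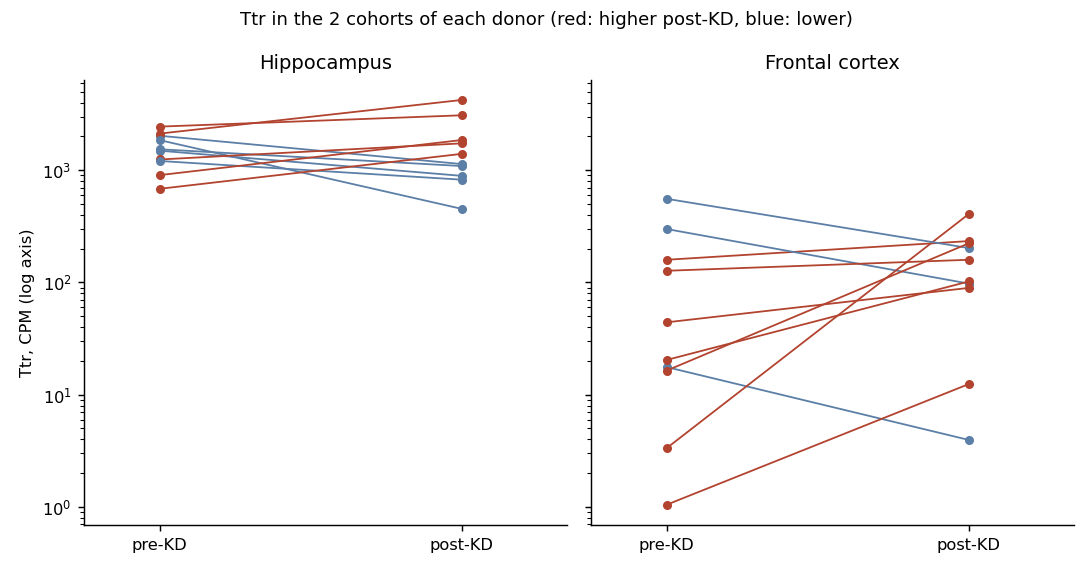
Ttr in CPM on a log axis in the pre-KD and post-KD cohorts of each donor, joined by a line, in hippocampus and frontal cortex. Lines rise for 5 of 10 donors in the left panel and for 7 of 10 in the right, and the frontal cortical values spread from 1.05 to 555 CPM.

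The post-KD change was compared between the regions of the same cohorts. None of the 10 members differed at an adjusted p under 0.05 and none had an unadjusted p under 0.05 (edgeR with cohort terms), where 0.0154% and 2.22% of genes did. DESeq2 gave none past the adjusted threshold and 1 with an unadjusted p under 0.05, Folr1 (p = 0.0348), where 949 of 19422 genes had one. The change of Ttr was lower in the hippocampus than in the frontal cortex by 1.32 on the log2 scale (log2 difference -1.32, SE 1.16 from its own dispersion, unadjusted p = 0.269). That difference was -0.19 without cohort terms and -1.68 to -0.83 leaving out each donor. With the change in each donor as the value, the mean difference was -1.27 ± 2.57 (SD, n = 10) and the exact two-sided sign-flip permutation p was 0.160. Without any 1 of donors 2, 3, 4, 6 and 9, the fit that sets aside the gene's own dispersion did call Ttr, with adjusted p between 9.83e-15 and 0.00464. Folr1 had a difference of 3.04 (SE 1.91) and Enpp2 of -0.08 (SE 0.35).

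Between post-KD and pre-KD cohorts none of the other choroid plexus genes (37 hippocampal and 33 frontal cortical ones tested) or of the members' partners (19 and 17) passed the adjusted threshold, in edgeR or in DESeq2. Chosen after their values were seen, the genes with the smallest p in the hippocampus were Gh, growth hormone, on the partner list (-4.36, edgeR adjusted p = 0.0774), and Slco1a5, an organic anion transporter, among the choroid plexus genes (-3.97, edgeR adjusted p = 0.0774). No action of Gh on a member was examined. Slco1a5 was listed at 0 in 18 of 20 hippocampal libraries, so that its fold rests on 2 of them, and Gh in 11 of 20. Wfdc2 had the smallest p among the frontal cortical choroid plexus genes (3.13, edgeR adjusted p = 0.294). At an unadjusted p under 0.05, which 10.1% of hippocampal and 9.68% of frontal cortical genes had, the choroid plexus list held 1 higher and 1 lower hippocampal gene and 2 higher and 0 lower frontal cortical ones (edgeR), and the partners 1 higher and 3 lower, and 1 higher and 0 lower.

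Covariation over libraries was examined to ask whether the members rose and fell together. For each region, the log2 CPM of Ttr was correlated with that of the other 9 members over 20 libraries (18 relations, permutation tests of 100000 resamples, BH over the 18). In the hippocampus, 9 of 9 correlations were positive, where 58.8% of all genes were, and 4 had an adjusted p under 0.05. Enpp2 followed Ttr most closely, with r = 0.90 (permutation p = 1e-05, adjusted 0.00018) and rho = 0.89 (permutation p = 1e-05, adjusted 0.00018). Kl came next (r = 0.78, adjusted permutation p = 0.00027, rho = 0.81, adjusted 0.00045), then Sostdc1 (r = 0.72, adjusted permutation p = 0.0018, rho = 0.68, adjusted 0.00762) and Prlr (r = 0.61, adjusted permutation p = 0.0125, rho = 0.60, adjusted 0.0215). Folr1 (r = 0.50), Otx2 (0.39), Clic6 (0.27), Kcnj13 (0.26) and Aqp1 (0.19) did not pass after adjustment, although Folr1 did with a prior count of 0.5 (r = 0.53, adjusted permutation p = 0.0409, rho unchanged at 0.32, adjusted 0.244).

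The same relations were computed over fewer libraries. Without the post-KD libraries of donors 2 and 6, the ones farthest from the median of Ttr, r was 0.83 for Enpp2, 0.69 for Kl, 0.60 for Sostdc1 and 0.58 for Prlr, all with an adjusted permutation p under 0.05. By rank Prlr missed it there (rho = 0.51, adjusted permutation p = 0.0964). Within conditions, r of Enpp2 with Ttr was 0.80 over 10 pre-KD and 0.94 over 10 post-KD libraries (adjusted permutation p = 0.0486 and 0.00072). For Kl it was 0.63 and 0.88, and for Sostdc1 0.58 and 0.83, and for these the adjusted permutation p passed post-KD (0.00576 and 0.0157) and missed pre-KD (0.116 and 0.147). For Prlr r was 0.74 pre-KD and 0.55 post-KD, and neither passed (adjusted permutation p = 0.0662 and 0.355). Among the members not called, r was 0.76 pre-KD and -0.0404 post-KD for Clic6 (adjusted permutation p = 0.066 and 0.913), 0.69 and 0.44 for Folr1, and 0.60 and 0.0995 for Kcnj13, and the differences between conditions were not tested. The level of Ttr in the hippocampus also rose with library size, r = 0.65 with log2 total counts (permutation p = 0.00217, adjusted 0.013 over 6 relations), as did that of Kl (r = 0.70, adjusted permutation p = 0.0142 over 20). With both measures taken as residuals on log2 total counts, a setting added after the data were seen, r was 0.92 for Enpp2, 0.61 for Kl, 0.56 for Sostdc1 and 0.55 for Prlr, each still with an adjusted permutation p under 0.05. The rank correlation of Sostdc1 did not pass on these residuals (rho = 0.43, adjusted permutation p = 0.141).

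In the frontal cortex 7 of 9 correlations with Ttr were positive, where 46.9% of all genes were, and 2 passed, those of Prlr (r = 0.63, adjusted permutation p = 0.0125, rho = 0.58, adjusted 0.0245) and Enpp2 (r = 0.62, adjusted permutation p = 0.0125, rho = 0.63, adjusted 0.0144). Without the pre-KD libraries of donors 4 and 5, which held the least Ttr, Enpp2 kept r = 0.65 (adjusted permutation p = 0.0258), while Prlr had r = 0.50 with a permutation p of 0.0341 and an adjusted one of 0.0877, past the threshold no longer. Folr1 came out at 0.55 (adjusted permutation p = 0.0465) in the same 18 libraries, from 0.36 in all 20. It was at 0 in 14 of the 20, and of its 73 counts 28 came from pre-KD donor 6 and 18 from post-KD donor 4. Those libraries also held the most Ttr of their groups. Within conditions, r of Enpp2 was 0.63 pre-KD and 0.60 post-KD with adjusted permutation p of 0.116 and 0.267, and that of Prlr was 0.86 (0.041) and 0.24 (0.752). Kl (r = 0.04) and Kcnj13 (r = -0.27), at 0 in 13 of 20 frontal cortical libraries each, did not pass. The correlation of Ttr with library size in the frontal cortex was r = 0.09 (permutation p = 0.704).

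**Figure D4:**
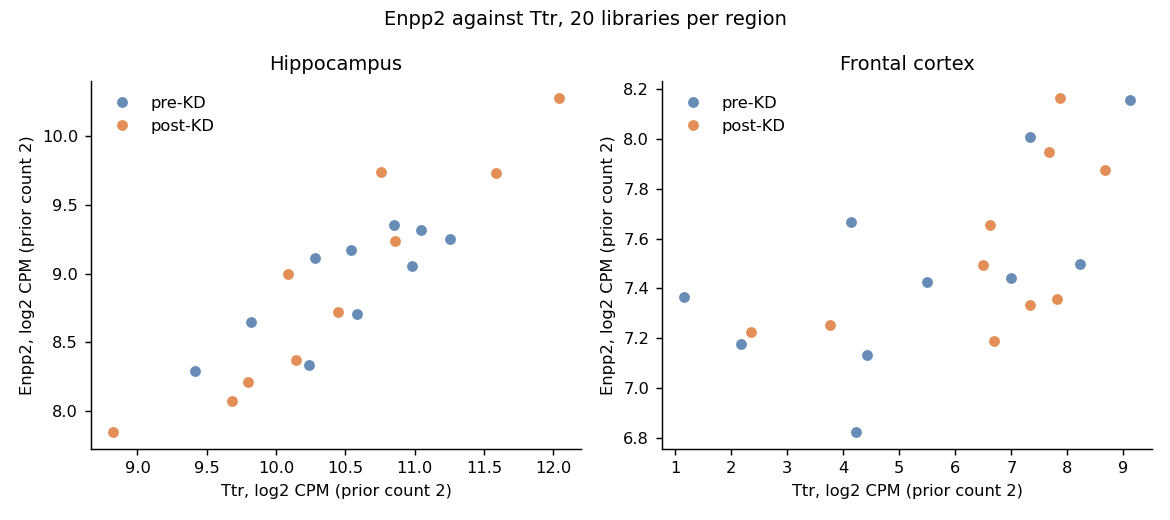
Enpp2 against Ttr in log2 CPM (prior count 2) in each region, 1 point per library, with pre-KD and post-KD in different colours. Points rise together in the hippocampus (r = 0.90, n = 20) and more loosely in the frontal cortex (r = 0.62, n = 20), in both conditions.

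Against all genes tested in a region, some members stood at the top and others did not. Among 17528 hippocampal genes Enpp2 ranked 1, Kl 2, Sostdc1 12, Prlr 90, Folr1 467, Otx2 1433, Clic6 3309, Kcnj13 3379 and Aqp1 4981 by r with Ttr, where the median r was 0.06 and the 99th percentile 0.57. Over frontal cortical libraries Prlr ranked 4 and Enpp2 5 of 17872 genes, where the median was -0.02 and the 99th percentile 0.47. Sostdc1 ranked 483, Folr1 678, Clic6 729, Otx2 1573, Kl 7017, Aqp1 10657 and Kcnj13 15477 there. Between members, 39 of 45 pairs were positively correlated in the hippocampus (median r 0.27) and 31 of 45 in the frontal cortex (median r 0.13). The pairs without Ttr had medians of 0.20 and 0.11 and share the same libraries. The share of positive pairs over all genes was not counted, and these pairs were not taken as residuals on library size. In the hippocampus r of the members with log2 total counts ran from 0.21 for Clic6 to 0.70 for Kl, and the part of library size in the pairs was not tested.

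**Figure D5:**
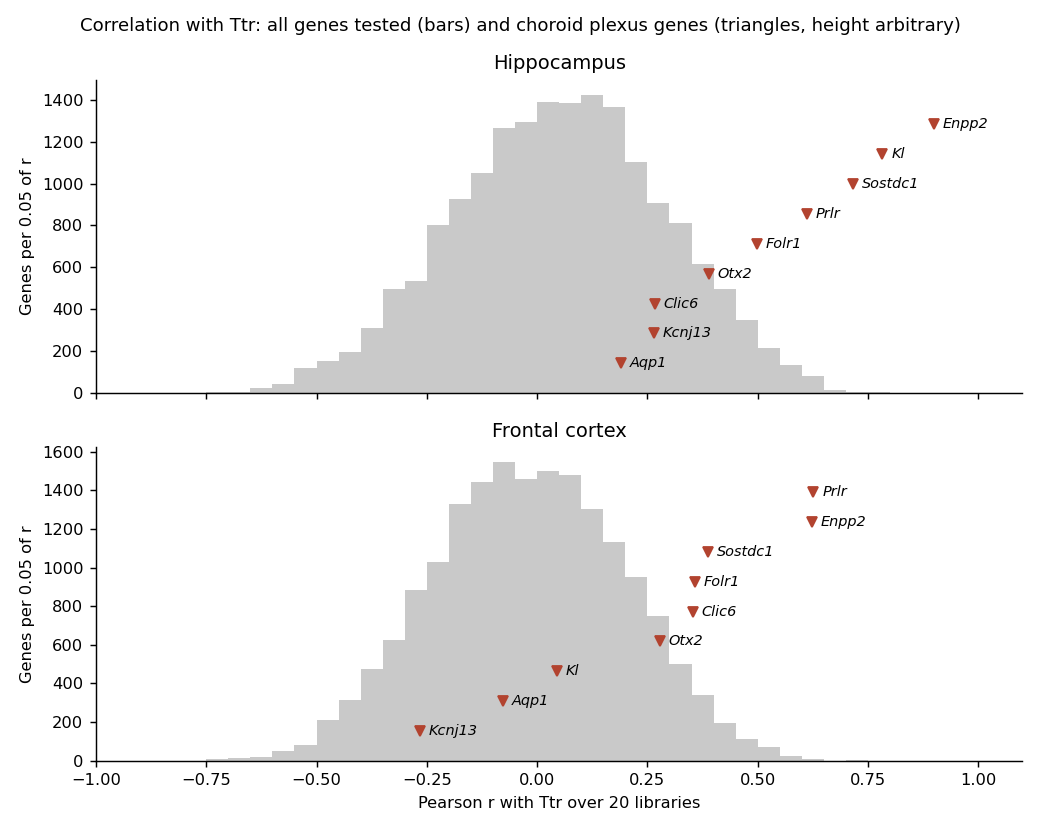
Number of genes by Pearson r with Ttr over the 20 libraries of each region (grey bars, 0.05 wide), with each other member marked by a triangle whose height has no meaning. In the hippocampus Enpp2 and Kl stand at the right end, at 0.90 and 0.78, and in the frontal cortex Prlr and Enpp2 do, at 0.63 and 0.62.

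The other choroid plexus genes leaned the same way. In the hippocampus 30 of 37 had a positive r with Ttr (58.8% over all genes), with a median of 0.17 beside 0.06 over all genes, and the highest were 1500015O10Rik (0.78), F5 (0.61), the potassium channel subunit gene Kcne2 (0.59), Col8a2 (0.51) and the tight junction gene Cldn2 (0.48). Over frontal cortical libraries 21 of 33 were positive (46.9% over all genes), with a median of 0.14 beside -0.02, and the highest were Msx1 (0.73), 1500015O10Rik (0.48), Tmem72 (0.35), Perp (0.35) and Slc4a5 (0.32). Several of these genes were sparse, and Kcne2 and Col8a2 were each at 0 in 11 of 20 hippocampal libraries. Slc4a5 was at 0 in 17 of 20 frontal cortical libraries, and 1500015O10Rik and Tmem72 in 11 each, so their r rests on few libraries. The hippocampal list had 3 genes above the 99th percentile of all genes and the frontal cortical list 2. Genes with the highest r outside the lists in the hippocampus were Trim28 (0.76), Stim2 (0.74), Tmem199 (0.71), Rpf2 (0.69), Gria1 (0.69), Usp53 (0.68), Atp1b1 (0.68), Ube2j1 (0.67) and Sptlc1 (0.67), among 8015 genes averaging at least 20 counts over 20 libraries. Those in the frontal cortex were Nudt3 (0.70), Tbk1 (0.69), Fez2 (0.62), Gnpat (0.61), Ociad2 (0.61), Bcl11a (0.61), Gm45182 (0.61), Fcho2 (0.60), Bcorl1 (0.59) and Gpatch11 (0.59), among 8254 genes.

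Markers of neighbouring cells were set beside Ttr in the same way, where 58.8% of all hippocampal and 46.9% of all frontal cortical genes had a positive r. Of 10 meningeal and fibroblast genes 9 were positive in the hippocampus, with a median r of 0.38 and a highest of 0.64 (Dcn), and 2 of 10 in the frontal cortex, with a median of -0.03. The summed level of this list ran from 184 to 431 CPM in pre-KD and from 123 to 482 CPM in post-KD hippocampus, and its part in the covariation was not tested. Of 12 ependymal genes 10 were positive in each region, with medians of 0.16 and 0.09. Of 10 oligodendrocyte genes, whose cells also make Enpp2, 6 were positive in the hippocampus (median 0.03) and 4 in the frontal cortex (median -0.06). Enpp2 itself had r between -0.26 and 0.29 with those 10 genes over hippocampal and between -0.41 and 0.22 over frontal cortical libraries, and none passed after adjustment over 22 relations that included Ttr. The 4 Y-linked genes had r with Ttr between -0.27 and -0.14 over hippocampal and between 0.08 and 0.25 over frontal cortical libraries.

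Hippocampus and frontal cortex of a cohort come from the same mice, so each member was also correlated between the regions. Over the 20 cohorts, the level of Ttr in the hippocampus had r = -0.16 with that in the frontal cortex (permutation p = 0.511, rho = 0.00, permutation p = 0.988), and none of the 10 members passed after adjustment over 10 relations. The strongest were Otx2 (r = -0.57, permutation p = 0.0102, adjusted 0.053, rho = -0.51, adjusted 0.116) and Aqp1 (r = 0.56, permutation p = 0.0106, adjusted 0.053, rho = 0.52, adjusted 0.116), of opposite sign. Enpp2 had r = -0.10. In these pools, then, no member's level in one region was shown to follow its level in the other.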

How the data were processed

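RNA was measured in 40 libraries of hippocampus and frontal cortex, grouped by the region and condition in the sample labels. The authors trimmed paired reads of 69 bp, aligned them to mm10 with STAR 2.5.2a and counted them with HTSeq-count 0.6.0, and deposited unnormalized counts per Ensembl gene, 1 table per region. The annotation release is not given in the sources used here. Of 47643 identifiers, 47224 were matched to GENCODE M21 and 419 were not.

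Members and lists were chosen with earlier results of these data known. The text names the 10 members, list genes past an adjusted p of 0.05 (of lists with more than 5, those with the smallest p), the 5 listed choroid plexus genes with the highest r with Ttr, and the 10 genes most like Ttr. The values of 1 list gene that this rule names are not reported here. edgeR 4.0.16 (TMM, quasi-likelihood test, R 4.3.3) was run on genes whose counts summed to 10 or more, with Benjamini-Hochberg adjustment over every gene of a fit and a threshold of 0.05. Post-KD against pre-KD was fitted without a block in each region, and region and its interaction with a term per cohort. Correlations used log2 CPM with a prior count of 2. Sign-flip tests and correlations used scipy 1.17.1 and 100000 resamples unless exact. Fits and correlations were tested on simulated data. Alternatives were each gene's own dispersion, DESeq2 1.42.0, RLE factors, other filters, leaving out Gm42418 (8.63% to 18.0% of counts), the donor as a block, no cohort terms, and leaving out each donor.

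Donors link pre-KD and post-KD cohorts by design. After removing group means, the correlation across genes between both libraries of a donor was -0.0279 to 0.0297 in the hippocampus and -0.0561 to 0.0316 in the frontal cortex (0 of 10 above 0.1 in each), and between the regions of a cohort -0.0276 to 0.208. No libraries were identical (0 pairs).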

Additional observations from a re-analysis of the deposited data

Results flagged for a closer look

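Folr1 in post-KD frontal cortex was flagged because 1 library stood far from the others of its group. The library of donor 4 held 10.1 CPM, or 18 of the group's 19 counts, while the group median was 0, and the gap to the next library took up a share of 0.828 of the group's whole range on the log2 scale. In that group 8 of 10 libraries were listed at 0. Without donor 4 the log2 fold change of Folr1 in the frontal cortex, post-KD against pre-KD, was -4.35 in place of -1.38 (edgeR adjusted p = 0.162). Of 40 groups examined, 10 members in 4 groups, this was the single flag. The threshold flags about 1 in 20 groups of normally distributed values, a rate that does not apply to groups mostly at 0 such as this one. No member's post-KD change differed between the regions past the adjusted threshold.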

How the results depend on the processing

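The call of 7 members between regions held with DESeq2 (1033 genes called), without cohort terms (1935 genes), with RLE factors, with no filter or filterByExpr, without Gm42418 and in each fit that left out a donor (447 to 555 genes), and fell to 5 with each gene's own dispersion, where Kcnj13 (4.29) and Prlr (2.5) missed the threshold.

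Genes called post-KD against pre-KD, 1 in each region, changed under other settings. In the hippocampus there were 0 with own dispersion, filterByExpr, DESeq2 or the replicate block (also with own dispersion or in DESeq2), 1291 with no filter, and 0 to 1 leaving out a donor with or without the block. The frontal cortex had 0 with own dispersion, 2 with DESeq2, 3 with the replicate block, 0 with the block and own dispersion, 12 with the block in DESeq2, 1 in each unblocked fit leaving out a donor, and 0 to 4 leaving out a donor from the blocked fit. For the change between regions, 3 genes became 0 with own dispersion, filterByExpr or DESeq2, 348 without cohort terms and 2 to 4 leaving out a donor. Members called in the frontal cortex were 1 with the replicate block, 0 to 1 leaving out a donor from that blocked fit and 0 leaving one out without the block. For the change between regions they were 0 to 1 leaving out a donor.

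With the replicate block, the block with own dispersion and the block in DESeq2, Ttr in the hippocampus had -0.0634, -0.0634 and -0.0481, Prlr -0.10, -0.10 and -0.0842, and Aqp1 in the frontal cortex -0.72, -0.72 and -0.74. The block changed no other member's call. In the change between regions DESeq2 gave Kl -0.40 and Sostdc1 -0.0909, and no cohort terms gave Enpp2 0.0948. Leaving out a donor, with or without the block, gave in the hippocampus Ttr -0.19 to 0.25, Enpp2 -0.0923 to 0.31, Prlr -0.33 to 0.27, Kcnj13 -0.43 to 0.77, Otx2 -0.83 to 0.0560 and Aqp1 -1.06 to 0.19. In the frontal cortex it gave Ttr -0.15 to 1.31, Enpp2 -0.00547 to 0.12, Kcnj13 -0.36 to 1.53, Otx2 -0.42 to 1.003 and Aqp1 -1.28 to 0.46. In the change between regions it gave Kl -0.28 to 1.06, Kcnj13 -1.62 to 0.53, Sostdc1 -0.49 to 0.96, Otx2 -1.62 to 0.89, Aqp1 -1.09 to 0.27 and Enpp2 -0.18 to 0.0460.

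Members correlated with Ttr were 4 over hippocampal (5 with a prior count of 0.5, Folr1 added) and 2 over frontal cortical libraries, and pre-KD libraries alone gave 1 and 1 and post-KD ones 0 in the frontal cortex. In the hippocampus r of Aqp1 with Ttr was -0.0243 without the farthest libraries, -0.11 pre-KD and -0.26 as residuals on total counts, and that of Clic6 -0.0404 post-KD, and in the frontal cortex that of Otx2 was -0.10 post-KD. Between regions r of Folr1 was 0.0506 with a prior count of 0.5 and 0.17 pre-KD, and without the farthest cohorts Ttr had 0.15, Clic6 0.00692 and Enpp2 0.13. Pre-KD cohorts gave Kl -0.0866, Clic6 0.0890, Prlr 0.0317, Sostdc1 -0.14 and Enpp2 0.0398. The cause of these changes was not tested. Outside Ttr and Enpp2, depth of at most 177 counts per library limits every value above.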
